A study of Saccharomyces cerevisiae with 48 samples.

Results

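The genes of the 3 nuclear RNA polymerases of budding yeast were followed through a respiratory cycle and through the hours after phenelzine was added. The 31 members were chosen by name, as subunit genes of polymerases I, II and III, from 5449 Saccharomyces cerevisiae genes with a probe set. Each had 1 probe set, and all 31 lay above the limit set for dim probe sets, so none was left out. They comprised 7 genes of polymerase I only, 10 of polymerase III only, 2 shared by polymerases I and III, 5 shared by all 3 enzymes and 7 of polymerase II only.

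RNA polymerase I makes the large ribosomal RNA precursor, polymerase III makes transfer RNAs and the 5S ribosomal RNA, and polymerase II makes messenger RNAs. The enzymes are built on one plan, with a pair of large catalytic subunits, an assembly platform, a stalk and a small subunit linked to RNA cleavage, and several small subunits are used in all of them. In yeast, polymerases I and III serve ribosome and transfer RNA production, which follows growth, while polymerase II is needed for every messenger RNA.

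The phenelzine group was 37 arrays from 14.6 to 17.0 h after inoculation, and the control group was 11 arrays from 13.8 to 14.5 h. The labels describe 1 fermenter of strain IFO0233 in continuous culture, whose oxygen use and transcription cycle together, sampled every 4 min, with 1 Affymetrix Yeast 2.0 array per time point. Phenelzine, a monoamine oxidase inhibitor, was added after the first cycle, with the stated purpose of doubling the period, and its dose is not given in the sources used here. The labels do not state outright that all 48 samples are 1 culture, and they are taken as such here. Time points stand in for replicates, so a p-value here reflects the scatter of time points within a single culture, and phenelzine cannot be told apart from drift over the hours.

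The deposited intensities had a column median of 32.4 to 86.8 on phenelzine arrays and 44.1 to 71.2 on control arrays. Precision depends on how many arrays each group has and on how widely a gene swings over the cycle. Values below are quantile-normalized log2 signals unless named otherwise, and times run from the first phenelzine sample. Array numbers skip 91, and only phenelzine arrays follow the gap. The 3 prime over 5 prime log2 ratio of the spiked dap control averaged 2.50 ± 0.20 (SD, n = 16) after the gap and 1.75 ± 0.19 (SD, n = 32) before it. RNA came from the whole culture, so a change in RNA per cell and a change in the share of cells at one stage cannot be told apart.

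Subunit genes of polymerases I and III and the shared subunits rose and fell together once per cycle, whereas genes of polymerase II alone moved little. After phenelzine the fitted 48-min amplitude, the height of the cosine's peak above its midline, had a median of 0.95 on the log2 scale over the 7 genes of polymerase I only. The median was 0.76 over the 2 genes shared by I and III, 0.54 over the 5 shared by all, 0.46 over the 10 of polymerase III only and 0.17 over the 7 of polymerase II only. Over all 5372 tested probe sets it was 0.23. As peak over trough of the fitted curve, these medians correspond to 3.75-fold for polymerase I, 2.87-fold for the genes shared by I and III, 2.11-fold for those shared by all, 1.91-fold for III and 1.26-fold for II.

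A 48-min rhythm after phenelzine passed limma's F test with Benjamini-Hochberg adjustment for 31 of 31 members. So did 87.8% of all tested probe sets, so the calls by themselves say little about these genes, and the classes differ in size of swing. Of the members 23 had an amplitude above the median of all tested probe sets, a mark that 50% of probe sets pass by construction. They were 7 of 7 for polymerase I, 2 of 2 for those shared by I and III, 5 of 5 for those shared by all, 8 of 10 for polymerase III and 1 of 7 for polymerase II. Every gene of polymerase I and every shared gene swung more widely than every gene of polymerase II, and so did 8 of the 10 genes of polymerase III. As deposited, RPB4, at 0.37, exceeded the shared genes RPO26 and RPB10 and 6 genes of polymerase III. The order of the class medians was the same with the values as deposited, with median-centred columns, with a pseudocount of 50, without the arrays after the missing number, and at 44 and 52 min.

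**Figure D1:**
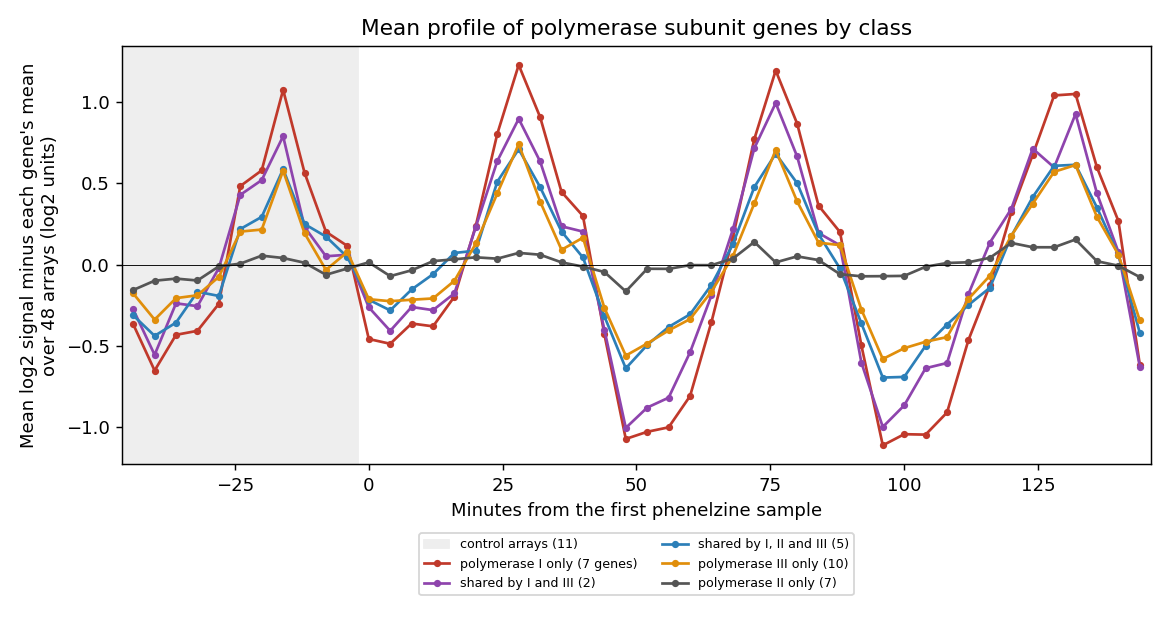
Mean of gene-centred log2 signal for the 5 classes (y axis, log2 units) at each of 48 time points (x axis, minutes from the first phenelzine sample), with control arrays shaded. The polymerase I mean peaked at -16, 28, 76 and 128 min, and the polymerase II mean stayed between -0.16 and 0.15 throughout.

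In the 3-point running mean, the polymerase I genes peaked at -16, 28, 76 and 128 min, intervals of 44, 48 and 52 min. The genes shared by all and those of polymerase II had the same peak times, and those of polymerase III and of I and III together differed only in a first peak at -20 min. The mean of the polymerase II genes at these peaks was 0.036 to 0.12, against 0.74 to 0.98 for polymerase I. The polymerase II mean includes RPB4 and RPB7, which ran against polymerase I (r = -0.77 and -0.62 over 48 arrays). Opposite movements thus partly cancel in it. Of single periods from 30 to 72 min, 50 min left the least residual for 22 of the 31 genes, 52 min for 5, and the others ranged from 48 to 56 min.

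Polymerase I carried the widest swings. RPA49 (YNL248C), which with RPA34 forms a pair related to the general factor TFIIF, had a lowest, median and highest signal of 7.98, 9.64 and 11.67 in phenelzine samples, against 8.83, 9.92 and 11.47 in control samples. The groups overlapped, with 8 phenelzine samples below all controls and 3 above all controls. Its amplitude of 1.43 (adjusted p = 3.5e-15, limma) was the highest of the 31 and lay at the 98.96th percentile of all tested probe sets, and its highest phenelzine sample was 12.9-fold above its lowest.

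RPA190 (YOR341W), the largest subunit with part of the active centre, had a lowest, median and highest signal of 10.32, 11.28 and 12.43 in phenelzine samples, against 10.88, 11.35 and 12.28 in control samples. For RPA135 (YPR010C), the second-largest subunit, these were 10.28, 11.34 and 12.54 in phenelzine samples, against 10.67, 11.43 and 12.36 in control samples. Both groups overlapped for both genes, with 10 phenelzine samples below all controls for RPA190 and 8 for RPA135. Their amplitudes were 0.83 and 0.95. Those of the other members of the class were 1.16 for the stalk gene RPA43, 1.06 for RPA12, which takes part in RNA cleavage, 0.92 for RPA34 and 0.56 for the small stalk gene RPA14.

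The 7 genes peaked within 6 min of each other in the 48-min fit, and the catalytic subunits came last. RPA12 peaked at 27.9 min (SE 0.51) and RPA34 at 28.5 min (SE 0.69), RPA49 at 29.99 min, RPA43 at 30.1 min and RPA14 at 30.8 min. RPA135 followed at 32.2 min (SE 0.42) and RPA190 at 33.7 min (SE 0.56). The intervals of 1 SE overlapped for RPA12 and RPA34, and among RPA49, RPA43 and RPA14, while the gap between RPA12 and RPA190 was larger than 1 sampling step of 4 min. The order of peak times between genes was not tested.

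Polymerase III subunits peaked with those of polymerase I but differed widely among themselves in amplitude. The widest swings were those of RPC53 (YDL150W), of the TFIIF-like pair, at 0.84, RET1 (YOR207C), the second-largest subunit, at 0.78, and the stalk gene RPC17 (YJL011C) at 0.69. RPC53 had a lowest, median and highest signal of 7.49, 8.66 and 9.96 in phenelzine samples, against 7.71, 8.47 and 9.62 in control samples, and the groups overlapped. The trimer that acts in promoter opening had amplitudes of 0.59 for RPC82, 0.50 for RPC31 and 0.30 for RPC34. RPC11, the cleavage and termination subunit, had 0.43, and RPO31 (YOR116C), the largest subunit, 0.42.

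RPC37 and RPC25 were the least rhythmic of the polymerase III class. RPC37, the partner of RPC53, had an amplitude of 0.20 (adjusted p = 1.8e-05, limma), below the median of all tested probe sets, and correlated with RPC53 at r = 0.64 over the 37 phenelzine arrays. The corresponding pair of polymerase I, RPA34 and RPA49, correlated at 0.96. RPC25, the larger stalk gene, had an amplitude of 0.18 (adjusted p = 0.00066, limma), with a lowest, median and highest signal of 9.26, 9.65 and 10.12 in phenelzine samples, against 9.62, 9.83 and 10.13 in control samples. Here 14 phenelzine samples lay below all controls and 0 above. With the values as deposited, RPC37, RPC25 and RPC34 did not pass, with amplitudes of 0.052, 0.044 and 0.14.

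Fitted peaks of polymerase III genes ran from 27.5 min for RPC34 to 33.6 min for RPO31, with a median of 29.3 min, against 30.1 min for polymerase I. As in polymerase I, both catalytic subunits lay at the late end of their class, RET1 at 31.4 min (SE 0.48) and RPO31 at 33.6 min (SE 0.59), with RPC11 at 31.3 min (SE 0.83) beside RET1. RPO31 and RPA190, the largest subunits of the 2 enzymes, lay within their SEs of each other.

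The subunits that several enzymes share followed polymerases I and III rather than the flat polymerase II genes. RPC40 (YPR110C) and RPC19 (YNL113W), the assembly platform of polymerases I and III, had amplitudes of 0.87 and 0.65 and peaked at 29.6 and 28.8 min. Among the genes common to all 3 enzymes the amplitude was 0.69 for RPB5, 0.55 for RPC10, 0.54 for RPB8, 0.41 for RPB10 and 0.38 for RPO26. Their peaks fell between 28.4 and 29.8 min, the narrowest spread of any class with more than 2 genes. RPB8 (YOR224C) had a lowest, median and highest signal of 11.40, 12.09 and 12.71 in phenelzine samples, against 11.66, 11.89 and 12.50 in control samples, and the 48-min cosine took 91.3% of its variance, the highest share of the 31 genes.

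Over the 37 phenelzine arrays, which share a culture and the scaling, the median correlation between genes shared by all and genes of polymerase I was 0.91, and with genes of polymerase III 0.88. With genes of polymerase II it was 0.61. Within a class the median r was 0.93 for polymerase I, 0.94 for genes shared by all, 0.78 for polymerase III and 0.19 for polymerase II.

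**Figure D2:**
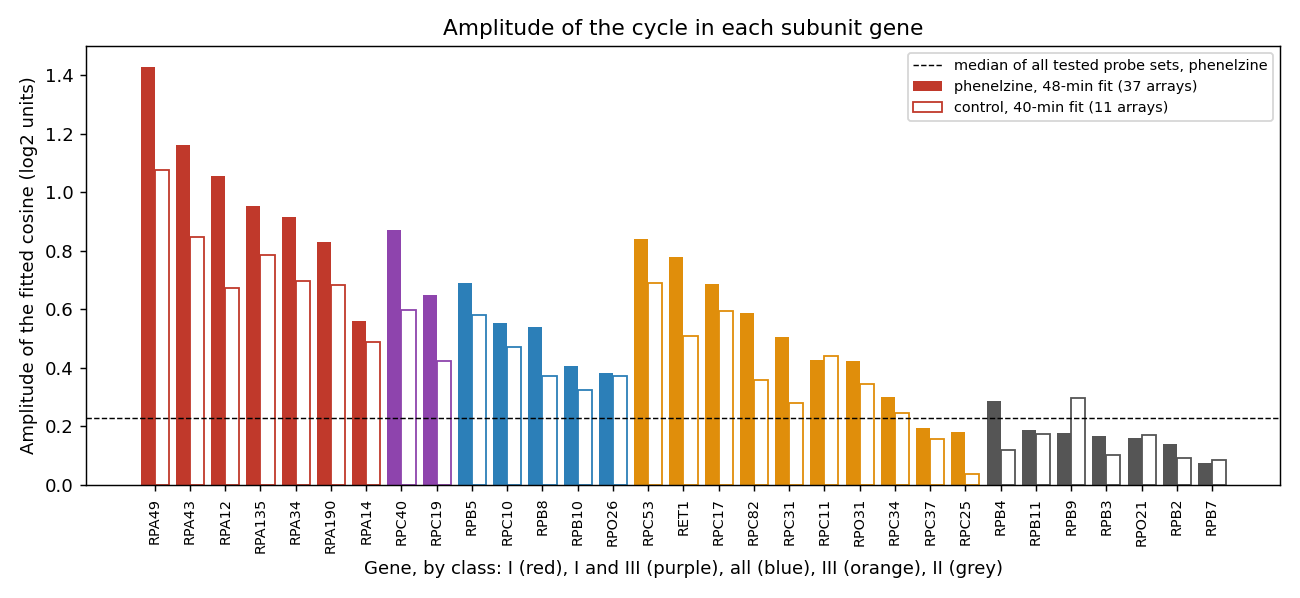
Amplitude of the fitted cosine (y axis, log2 units) for each gene (x axis, by class), with phenelzine as filled bars (48-min fit, 37 arrays) and control as open bars (40-min fit, 11 arrays), and a dashed line at the phenelzine median of all tested probe sets, 0.23. Phenelzine bars run from 0.56 to 1.43 for polymerase I and from 0.074 to 0.29 for polymerase II.

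Polymerase II genes had small rhythms that did not all share a phase. RPO21 (YDL140C), the largest subunit, whose repeated tail carries the marks of the transcription cycle, had a lowest, median and highest signal of 11.58, 11.98 and 12.26 in phenelzine samples, against 11.64, 11.80 and 12.07 in control samples. RPB2 (YOR151C), the second-largest subunit, had 11.51, 11.80 and 12.03 in phenelzine samples, against 11.75, 11.84 and 11.96 in control samples. The groups overlapped for both. Amplitudes were 0.16 for RPO21, 0.14 for RPB2, 0.17 for RPB3, 0.19 for RPB11 and 0.18 for RPB9, with peaks from 26.6 min for RPB3 to 33.6 min for RPB11.

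RPB4 (YJL140W) and RPB7 (YDR404C), which form the stalk of polymerase II and dissociate from the enzyme more readily than the rest, peaked at another time from the other 29 genes, nearer to the median of all called probe sets, 9.71 min (quartiles 1.57 and 19.3 min). RPB4 had a lowest, median and highest signal of 11.29, 11.80 and 12.11 in phenelzine samples, against 11.41, 11.72 and 11.92 in control samples. Its highest phenelzine sample came 1 sampling step after the polymerase I trough at 100 min and its lowest at 132 min, 1 step after the polymerase I peak at 128 min, while in control samples its highest was at -36 min and its lowest at -16 min. The fitted peak was at 10.1 min (SE 0.65), with an amplitude of 0.29 (adjusted p = 2.5e-12, limma). RPB7 had a lowest, median and highest signal of 10.30, 10.59 and 10.83 in phenelzine samples, against 10.37, 10.57 and 10.67 in control samples. It peaked at 4.94 min (SE 2.59) with an amplitude of 0.074 (adjusted p = 0.022, limma), the smallest of the 31.

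The early position of RPB4 kept its call in each of the scalings, array subsets and periods tried for the peak time, with a peak between 5.00 and 14.6 min. RPB7 did not pass at 44 min (adjusted p = 0.39). RPB4 and RPB7 correlated at 0.36 over the phenelzine arrays, against 0.92 for the stalk pair RPA43 and RPA14 of polymerase I and 0.77 for RPC25 and RPC17 of polymerase III. RPB4 had r = -0.77 and RPB7 r = -0.62 with the mean polymerase I profile over all 48 arrays, where the other 29 genes had 0.50 to 0.99.

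The scaling mattered most for polymerase II. With the values as deposited, where 79.6% of all probe sets and 24 of the 31 genes passed, the class kept 3 calls of 7, RPB4 with an amplitude of 0.37, RPB7 with 0.24 and RPB11 with 0.15. RPO21, RPB2, RPB3 and RPB9 had 0.0089 to 0.088 there and did not pass. Their fitted peaks then scattered from 17.5 min for RPB3 to 36.5 min for RPB2, and that of RPB11 moved to 40.8 min. With median-centred columns all 7 passed, as did 85.6% of all probe sets.

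**Figure D3:**
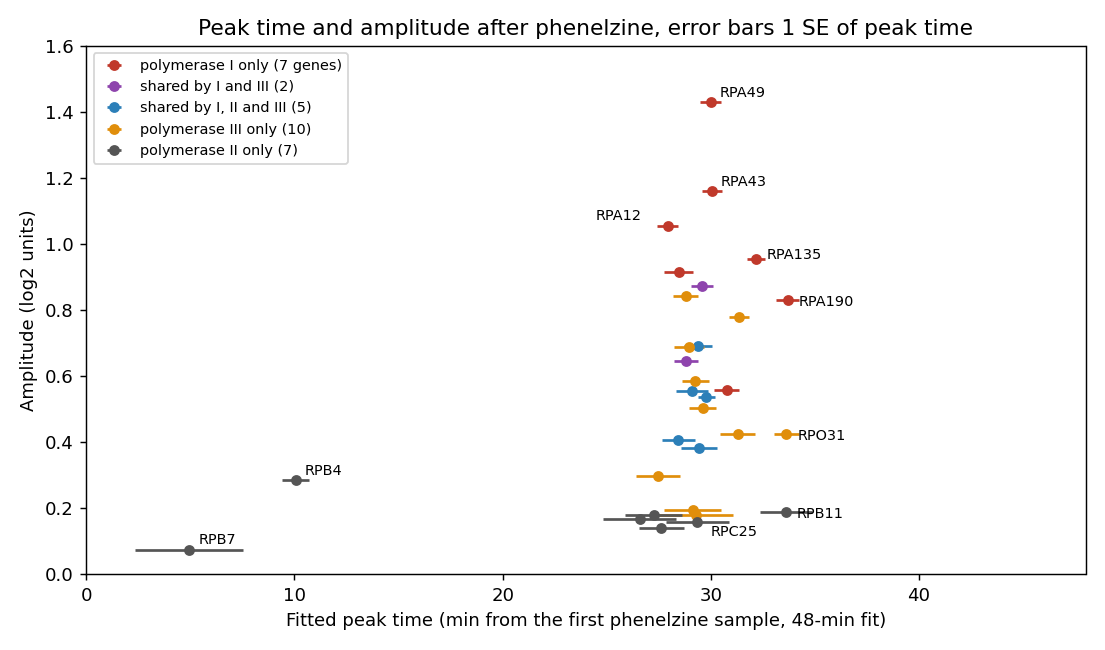
Fitted peak time (x axis, minutes from the first phenelzine sample, error bars 1 SE) against amplitude (y axis, log2 units) for the 31 genes in the 48-min fit, coloured by class. All genes but RPB4 and RPB7 peak between 26.6 and 33.7 min, whatever their amplitude. With the values as deposited, not drawn here, the called genes RPA190, RPO31 and RPB11 peaked later, at 34.9, 36.4 and 40.8 min.

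Set side by side at the same place in the enzyme, the subunit of polymerase II had the smallest amplitude at each of the 7 homologous positions. As deposited this held at 6 of them, since RPB7 then had 0.24, against 0.044 for RPC25. For the largest subunit the amplitudes were 0.83 for RPA190, 0.42 for RPO31 and 0.16 for RPO21. For the second subunit they were 0.95 for RPA135, 0.78 for RET1 and 0.14 for RPB2, with a ratio of 6.80 between RPA135 and RPB2. For the cleavage subunit they were 1.06 for RPA12, 0.43 for RPC11 and 0.18 for RPB9. In the assembly platform RPC40 and RPC19 had 0.87 and 0.65, against 0.17 and 0.19 for their polymerase II counterparts RPB3 and RPB11.

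The stalk departed from this order between polymerases I and III. RPA43 had 1.16, RPC25 0.18 and RPB7 0.074 for the larger partner, whereas for the smaller partner RPC17 had 0.69, above RPA14 at 0.56 and RPB4 at 0.29. Correlations between homologues of polymerases I and III over the phenelzine arrays were 0.76 to 0.97. Those of polymerase I with polymerase II, counting RPC40 and RPC19 with polymerase I, ran from 0.44 to 0.74 outside the stalk and were -0.63 and -0.82 for the stalk genes.

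**Figure D4:**
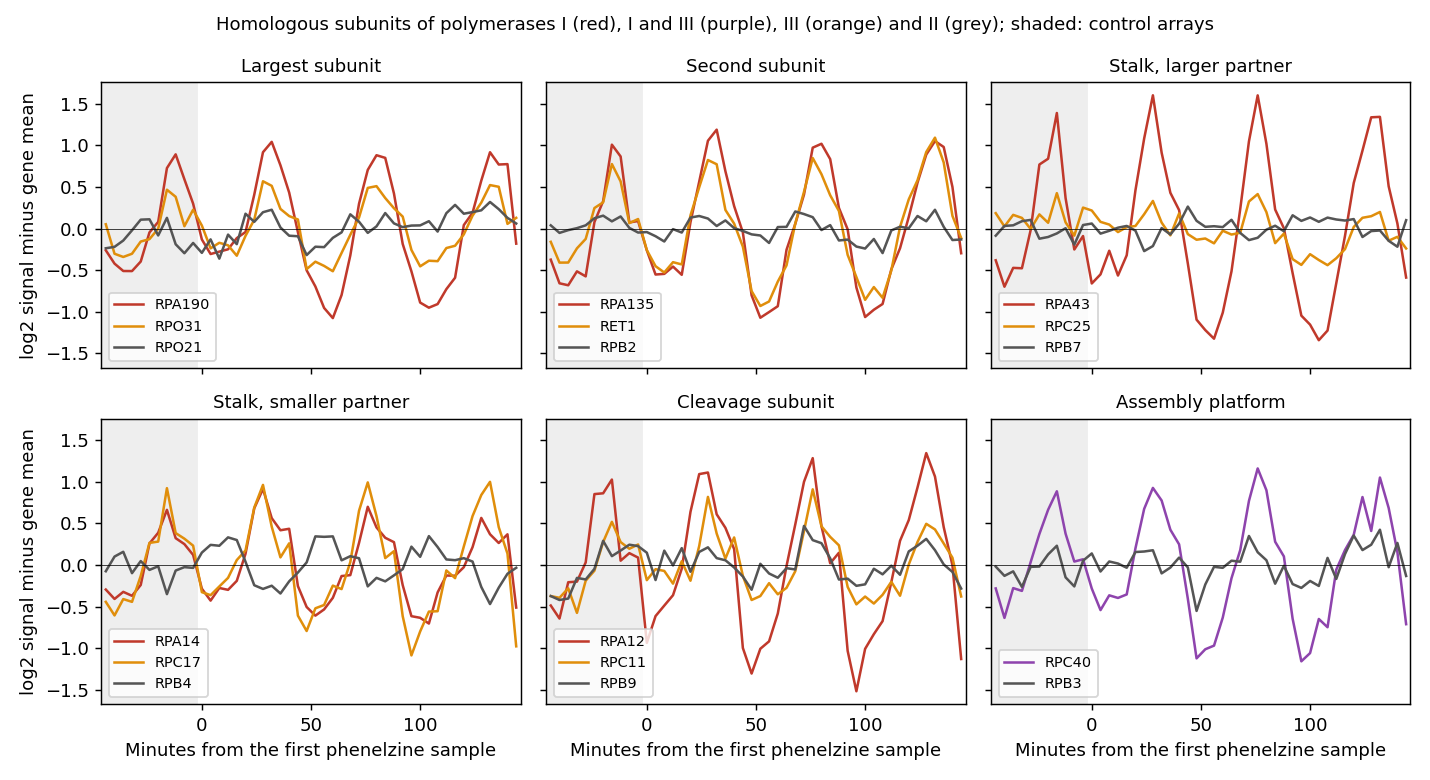
Gene-centred log2 signal (y axis) against minutes from the first phenelzine sample (x axis) for homologous subunits at 6 positions, with control arrays shaded. Lines of polymerases I and III rise and fall together, RPC25 with a much smaller swing than RPA43, and RPB4 runs opposite to RPA14 and RPC17.

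The same classes moved before phenelzine. A 40-min rhythm in the 11 control samples passed limma's F test for 26 of the 31 genes, against 66.7% of all tested probe sets. They were 7 of 7 for polymerase I, 2 of 2 for the genes shared by I and III, 5 of 5 for those shared by all, 8 of 10 for polymerase III and 4 of 7 for polymerase II. The genes that did not pass were RPC37 (adjusted p = 0.076), RPC25 (0.86), RPB3 (0.29), RPB4 (0.10) and RPB7 (0.21). With the values as deposited 19 of the 31 genes passed, against 54.7% of all. Of the 26 genes 10 then lost their call, among them all 4 of polymerase II, RPO21 (adjusted p = 0.11), RPB2 (0.78), RPB9 (0.56) and RPB11 (0.97). Another 16 kept it. The rest of the 19 came from RPC37, RPC25, RPB3, RPB4 and RPB7, and so were not all of polymerase III. The median control amplitude was 0.70 for polymerase I, 0.35 for polymerase III and 0.12 for polymerase II, against 0.21 over all tested probe sets. The control spanned 40 min, too short to separate a rhythm from 1 passing wave.

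The mean swing of the polymerase I genes had a wider range in the later phenelzine cycles than in the control. The class mean ranged over 2.26 log2 units in the phenelzine samples from 48 to 92 min, 2.16 from 96 min to the end and 1.71 from 0 to 44 min, against 1.72 in the control samples. Its peaks reached 1.23 and 1.19 on single arrays at 28 and 76 min and 1.07 at -16 min, while its lowest value was -1.11 in phenelzine samples, against -0.65 in control samples. The ranges of the later windows for polymerase III were 1.26 and 1.19, against 0.92 in the control. A range can only grow as arrays are added, and the control held 11 arrays, against 12 and 13 in the later windows. From -44 to -4 min, the control was also shorter than the 44 to 52 min between polymerase I peaks. The window from 96 min on lay wholly after the missing array number, and that from 48 to 92 min partly so. The part of window length or labelling in the wider ranges was not tested. These limits also hold for the lowest and highest samples compared below.

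Gene by gene, the lowest sample from 48 to 92 min lay below the lowest control sample for 24 of the 31 genes, a state seen for 67.9% of all tested probe sets. These were 7 of 7 of polymerase I, 2 of 2 shared by I and III, 5 of 5 shared by all, 7 of 10 of polymerase III and 3 of 7 of polymerase II. From 0 to 44 min it was so for 10 genes, against 62% of all probe sets. From 96 min on it was so for 26 genes, against 65.7% of all. Highest samples lay above the highest control sample for 26 genes from 0 to 44 min, 28 from 48 to 92 min and 24 from 96 min on, against 59.4%, 67.2% and 64.9% of all probe sets. RPA49 bottomed at 8.05 from 48 to 92 min and 7.98 from 96 min on, against 8.83 in the control, while RPA190 bottomed at 10.32 and 10.44, against 10.88. The test of the rhythm itself, an interaction of group with a 44-min cosine in limma, called 0 of 31 genes, against 0.745% of all probe sets. Without adjustment 15 had p under 0.05, against 23.3% of all. RPC37 came nearest (adjusted p = 0.058). Without the arrays after the missing number, where the labelling control stood apart, 3 were called, against 2.25% of all. At a period of 40 min the interaction called 9, against 17.8% of all, and at 48 min it called 4, against 18% of all.

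A component of 96 min, as alternate cycles of unequal size would give, was called for 0 of 31 genes and 0% of all probe sets by limma. Without adjustment 2 had p under 0.05, RPO21 and RPB2, against 7.76% of all probe sets. The amplitude of this component had a median of 0.049 over the 31 genes and 0.043 over all tested probe sets, and the largest among the members was 0.10, for RPA12. The polymerase I mean reached 0.98, 0.94 and 0.92 in the running mean at its phenelzine peaks. The phenelzine samples cover less than a pair of such periods, so a slow component is weakly determined.

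Averaged over all time points, the level of 0 of the 31 genes differed between phenelzine and control by limma, against 0.465% of all tested probe sets. Without adjustment 2 had p under 0.05, against 9.44% of all. These were RPC25, which averaged 9.67 ± 0.22 (SD, n = 37) in phenelzine and 9.83 ± 0.14 (SD, n = 11) in control samples (adjusted p = 0.38, limma), and RPO21, which averaged 11.97 ± 0.18 (SD, n = 37) in phenelzine and 11.85 ± 0.15 (SD, n = 11) in control samples (adjusted p = 0.51, limma). The differences ran from -0.21 for RPA34 to 0.12 for RPO21, with a median of -0.044, against -0.0042 over all probe sets. The SE was 0.35 for RPA49 and 0.040 for RPB7, so a change in level is least resolved for the genes of widest swing.

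Pairing each control sample with the one 44 min later compares similar positions in the cycle and shrinks this error. In the 11 pairs 3 of 31 genes passed limma, all higher in phenelzine, against 4.04% of all probe sets that were higher 4.45% that were lower and 8.49% called in either direction. RPC10 (YHR143W-A), a zinc-binding subunit of all 3 enzymes, averaged 11.21 ± 0.42 in phenelzine and 10.94 ± 0.40 in control samples (SD, n = 11 each). The difference was 0.28 (SE 0.06, adjusted p = 0.016, limma) and was above 0 in 9 of 11 pairs. RPA190 averaged 11.61 ± 0.51 in phenelzine and 11.43 ± 0.52 in control samples (SD, n = 11 each), a difference of 0.18 (SE 0.03, adjusted p = 0.0071, limma), above 0 in 11 of 11 pairs. RPA135 averaged 11.49 ± 0.66 in phenelzine and 11.32 ± 0.59 in control samples (SD, n = 11 each), a difference of 0.17 (SE 0.05, adjusted p = 0.045, limma), above 0 in 10 of 11 pairs. It did not pass with median-centred columns (adjusted p = 0.11) or without the mean-variance trend (adjusted p = 0.073).

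The paired difference was above 0 for 26 of the 31 genes, against 47.3% of all probe sets, with a median of 0.097, against -0.0058. Below 0 were RET1, RPC37, RPC25, RPB2 and RPB7, with -0.034 for RPC25 the lowest. None of the 31 passed with a lag of 40 or 48 min, where 0.0745% and 0.168% of all probe sets passed. With the values as deposited the median of all probe sets moved to -0.13. There 0 passed, against 17.6% of all, and 25 of 31 lay above that median, against 50% of probe sets by construction. The level comparison and the paired one share the control samples.

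Over the hours after phenelzine 6 of 31 genes had a linear trend by limma with the 48-min rhythm in the model, against 39.8% of all tested probe sets. Rising were 2 genes, against 20.6% of all probe sets, RPO21 with a log2 slope of 0.13 per hour (SE 0.02, adjusted p = 8.1e-05) and RPC37 with 0.086 (adjusted p = 0.036). Falling were 4 genes, against 19.2% of all. RPA190 fell by 0.16 per hour (adjusted p = 0.032), RPC25 by 0.15 (adjusted p = 0.0011), RPC82 by 0.12 (adjusted p = 0.049) and RPO26 by 0.11 (adjusted p = 0.039). With the values as deposited the split turned, with 9 genes called rising and 0 falling, against 42.4% of all probe sets called in either direction. Slopes were below 0 for 24 of 31 genes, against 48.8% of all probe sets.

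These trends move with the arrays after the missing number, whose dap ratio was higher. Without those arrays 2 genes passed, against 7% of all probe sets, RPA190 at -0.49 and RPO26 at -0.27 per hour, while RPO21 had -0.036 and RPC37 -0.057. As deposited, all probe sets had a median slope of 0.11 per hour. On that scale RPO21 had 0.28, RPA190 -0.029 and RPO26 0.057. Above the median lay 9 of 31 genes, against 50% of probe sets by construction. The part of the labelling difference in these slopes was not tested.

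**Figure D5:**
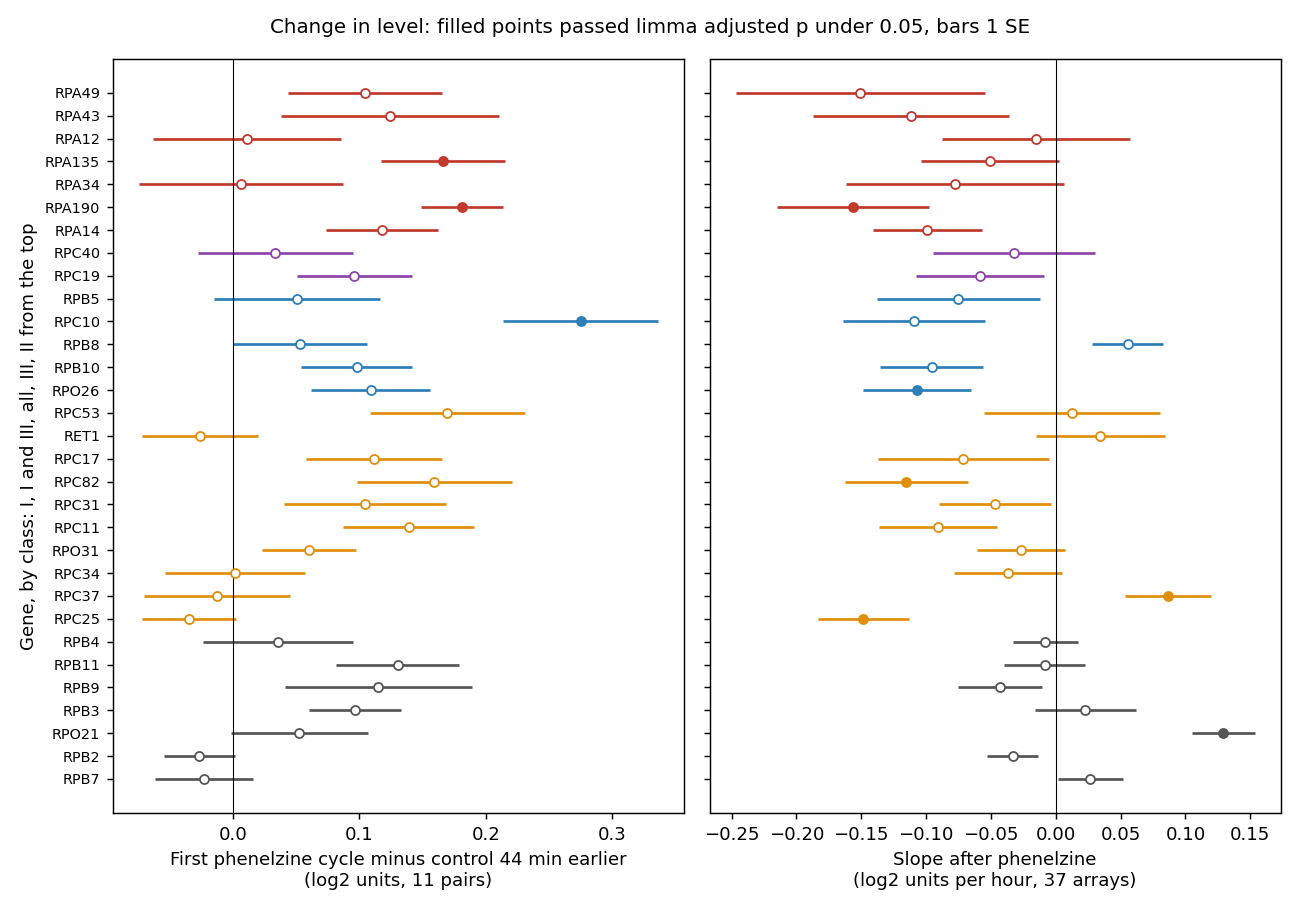
Difference between the first phenelzine cycle and the control 44 min earlier (left, x axis in log2 units, 11 pairs) and slope after phenelzine (right, x axis in log2 units per hour, 37 arrays) for the 31 genes (y axis), with bars of 1 SE and filled points for limma adjusted p under 0.05. On the left RPC10, RPA190 and RPA135 passed, and on the right RPO21 and RPC37 lie above 0 and RPA190, RPC25, RPC82 and RPO26 below 0 among those that passed.

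Genes that act with the polymerases did not move as one with them. Of 9 polymerase I initiation factor genes 9 had a 48-min rhythm, against 87.8% of all tested probe sets. Their median amplitude was 0.27, against 0.23 over all. The largest were RRN11 at 1.28, RRN3, which links the enzyme to its promoter factors, at 0.61, and RRN7 at 0.60, with peaks at 27.2, 26.4 and 28.3 min, close to the polymerase I subunits. Grouping them by complex, a choice made after their values were seen, the core factor genes RRN6, RRN7 and RRN11 peaked between 27.2 and 31.1 min, while RRN5, RRN9, RRN10 and UAF30 of the upstream activating factor peaked at 5.56, 14.6, 9.00 and 11.7 min. These early peaks lay within the quartiles of all called probe sets, 1.57 and 19.3 min. RRN6, at 31.1 min, had the smallest amplitude of the 9, 0.15. HMO1, left outside this grouping, peaked between the groups at 19.4 min, with an amplitude of 0.28. With the values as deposited 8 of the 9 passed, against 79.6% of all probe sets, with peaks from 5.40 to 27.6 min.

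Of 9 polymerase III factor genes 6 passed, against 87.8% of all tested probe sets, with peaks from 4.52 to 17.3 min, which did not overlap the 27.5 to 33.6 min of the 10 subunit genes. The widest were TFC8, of the factor TFIIIC, with an amplitude of 0.38, MAF1, a repressor of polymerase III, with 0.30 and a peak at 4.52 min, and TFC6 with 0.25. The median amplitude of the 9 was 0.21. The median peak of the 6 was 9.43 min, near the 9.71 min of all called probe sets (quartiles 1.57 and 19.3 min). With the values as deposited 8 passed, against 79.6% of all probe sets, with peaks from 0.89 to 10.6 min. The subunit genes that passed there peaked from 28.9 to 36.4 min.

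Of 18 polymerase II general factor genes 16 passed, against 87.8% of all tested probe sets. Their median amplitude was 0.14, near the 0.17 of the polymerase II subunits, and their peaks spread over the cycle. The widest were TFB3 at 0.37 and TFA2 at 0.29, with peaks at 6.74 and 1.68 min, and RAD3 at 0.24, peaking at 22.5 min. Of 7 polymerase assembly and import genes 6 passed, against the same 87.8% of all. RBA50 had 1.13, peaking at 36.5 min, GPN3 0.57, peaking at 26.7 min, and NPA3 0.51, peaking at 31.3 min. SPT15, the TATA-binding protein used by all 3 enzymes, had 0.20 and peaked at 29.3 min.

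Small subunit processome genes, which act on the transcript of polymerase I, resembled the polymerase I subunits. All 36 passed the 48-min test, as did 87.8% of all probe sets, with a median amplitude of 0.93, against 0.95 for polymerase I, and a median peak of 29.02 min, against 30.1 min. The widest were UTP21 at 1.47, DHR2 at 1.41 and UTP14 at 1.29. In the 11 pairs 13 of 36 were called, all higher in phenelzine, against 4.04% of all probe sets, with a median difference of 0.17, against 2 of 7 and 0.12 for polymerase I. The difference between the lists was not tested.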

How the data were processed

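Biotin-labelled RNA of 48 samples taken as a single yeast culture was read on 1-colour arrays. The deposited values are linear signal intensity per probe set, for which the submitters' processing notes name GCOS. The sources used here give neither its version nor its algorithm or scaling. Gene names follow the platform annotation, updated by the R64 gene table, which served for names and neighbours only. Of 10928 probe sets 5498 had a Saccharomyces cerevisiae gene.

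Signals under 1 were set to 1, and log2 values were quantile normalized. Tested were 5372 budding yeast probe sets whose mean exceeded 3.01, the 90th percentile of 1747 other probe sets in the gene annotation. Those were of fission yeast or not matched to a single budding yeast gene. Tests used limma 3.58.1 in R 4.3.3 (eBayes with a mean-variance trend) over all tested probe sets, at a Benjamini-Hochberg adjusted p under 0.05, and were checked on simulated data. The simulation drew noise independently for each time point, so it cannot speak for dependence between neighbouring samples. In the paired comparison the trend used the mean signal of the paired arrays. Peak times are those of the fitted cosine, with delta-method SEs. Class peaks are maxima of a 3-point running mean within 12 min on each side. The named genes were all 31 members, in each list up to 3 with the largest 48-min amplitude, and the 6 genes of most similar profile to polymerase I. The other polymerase I factor genes were named as well, for the grouping by complex made after their values were seen. Members, lists, periods and lag were chosen with earlier results of these data known. Figures used matplotlib 3.10.9 in Python 3.11.15. No promoter or protein sequence was used here.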

Additional observations from a re-analysis of the deposited data

Results flagged for a closer look

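Among probe sets left out of the comparisons, the spiked dap control reached a 3 prime over 5 prime log2 ratio of 2.8 on the highest phenelzine array, against 1.96 on the highest control array.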

How the results depend on the processing

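Levels were called for 0 of 31 genes, against 0% to 2.08% of all probe sets, in every setting but the replicate block. That block, of 11 pairs 44 min apart, is the paired comparison itself and called 3, against 8.49% of all. The labels give no replicate numbers, so these pairs rest on time alone. The 48-min rhythm was called for 24 to 31 genes, against 79.6% to 89.7% of all probe sets, except at 40 min, with 0, against 0% of all. The control rhythm was called for 26, against 66.7% of all, and as deposited for 19, against 54.7%. Otherwise it was called for 25 or 26, against 65.1% to 69.4% of all. Trends were called for 6 genes (2 rising, 4 falling), against 39.8% of all probe sets. As deposited 9 were called (9 rising, 0 falling), against 42.4% of all, and with median-centred columns 3, against 31.8%. Without the arrays after the missing number 2 were called, against 7% of all. Without the 7 arrays of name suffix 02 it was 11, against 43.7%. With 40-min and 80-min terms 1 was called, against 10.8%, and with no rhythm terms 1, against 12.2%. In these last fits the slope of RPA190 turned to 0.092 and 0.042. RPC37 turned to -0.057 and RPO21 to -0.036 without the arrays after the missing number, and RPO26 to 0.057 as deposited. The paired comparison called 3, against 8.49% of all probe sets, and 0 as deposited, against 17.6%. With lags of 40 and 48 min it called 0 each, against 0.0745% and 0.168% of all. The interaction called 0, against 0.745% of all probe sets. It called 3 without the arrays after the missing number, against 2.25% of all, and 1 without suffix 02, against 1.73%. At 40 min it called 9, against 17.8%, and at 48 min 4, against 18%. The median peak of the 31 genes was 29.3 min, against 30.45 min as deposited, 28.4 min without the arrays after the missing number, 32.95 min at a 44-min period and 24.9 min at 52 min, where the fitted period itself shifts the time. The cause was not tested for the other changes. Over all 5372 probe sets the counts were 25 for level (0 to 456 in other settings), 2138 for trend (376 to 2347), 456 for pairs (4 to 948), 40 for the interaction (0 to 965) and 4716 for the rhythm (0 at 40 min, otherwise 4275 to 4820). Of single-gene rhythm calls after phenelzine, 302 of 341 kept their call over the settings. One array per time point limits all of these.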

Other observations

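The 6 genes outside the list whose profile over 48 arrays lay closest to the mean of the polymerase I genes were PSE1, a nuclear import receptor (r = 0.99), RIX7, an ATPase of large ribosomal subunit assembly (0.99), URA7, CTP synthase (0.99), TSR2, UTP23 and NSA2 (0.98 each), out of 5301 tested genes with a median r of -0.17. They peaked between 29.4 and 30.9 min with amplitudes of 0.57 for PSE1 to 1.398 for URA7. Arrays and scaling are shared by all these profiles.

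RPA43 and RPA190 are the 1 pair of members that lie next to each other in the R64 gene table, and the strand letters of their systematic names, YOR340C and YOR341W, place them back to back. Over the 37 phenelzine arrays they correlated at 0.85, below the median of 0.93 for pairs of polymerase I genes, with fitted peaks of 30.1 and 33.7 min.

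Cytosolic ribosomal protein genes, whose products are assembled with the transcripts of polymerases I and III, had a median 48-min amplitude of 0.14 over 122 genes, nearer to the 0.17 of polymerase II than to the 0.95 of polymerase I. In timing, the ribosomal protein genes that passed the 48-min test had a median peak of 31.3 min (quartiles 29.6 and 33.2 min). The median peak was 30.1 min for polymerase I and 29.3 min for polymerase III. For polymerase II it was 27.3 min, over genes that peaked from 4.94 to 33.6 min, and as deposited 4.07 min over the 3 called. Over all called probe sets the median peak was 9.71 min. The trend of the ribosomal protein genes differed from that of the subunit genes in count. Of the 122 genes 67 fell and 2 rose after phenelzine, against 4 of 31 falling and 2 of 31 rising among the subunit genes. Over all tested probe sets 19.2% fell and 20.6% rose. The difference between the lists was not tested.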
